A study of Mus musculus with 4 samples.

Results

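The genes examined here are the tumour necrosis factor (TNF) ligands and receptors whose symbols carry the systematic Tnfsf or Tnfrsf numbering. Of the 19555 gene rows measured, 25 were taken as members by that pattern, 7 ligands and 18 receptors. Of these, 19 reached at least 1 RPKM (reads scaled by exon length in kilobases and by library size) in at least 1 library and are described, 5 ligands and 14 receptors, and 6 stayed below. Just inside that level were Tnfrsf8 and Tnfrsf21, with highest values of 4.28 and 4.50 RPKM, and just outside were Tnfrsf11b and Tnfsf10, with 0.624 and 0.578 RPKM.

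The members were measured by RNA-seq in CD4+ T cells of C57BL/6 mice, taken as naive cells from spleen and lymph nodes, activated, and kept for 3 days in vitro with IL-6 and TGF-β1, which direct them to the T helper 17 (Th17) fate. The 4 groups were wild type (WT) cells at 37 °C, WT cells at the fever-range temperature of 39.5 °C, Smad4 KO cells at 37 °C and Smad4 KO cells at 39.5 °C. All groups shared the cytokines and the strain, each had 1 library, and the sources used here give neither the Cre driver or deleted exons of the Smad4 allele nor the age or number of mice. Smad4 itself was measured at 14.0, 14.2, 20.7 and 21.3 RPKM in that order of groups, so the gene named in the label was higher where the label says KO. The groups are therefore called the libraries labelled Smad4 KO, or KO-labelled, and each direction by genotype is that of the label; a sum over all exons does not show whether part of the gene is lost.

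TNF superfamily ligands are mostly trimeric membrane proteins on activated lymphocytes and antigen-presenting cells, and they cluster their receptors on a partner cell or the same cell. Receptors without a death domain recruit TRAF adaptors and pass costimulatory and survival signals, largely through NF-κB, while those with a death domain can also start apoptosis, and decoy receptors bind ligand without a full signal. In CD4+ T cells, OX40, 4-1BB and GITR appear or increase with activation and sustain the response, and OX40L, CD30L and RANKL can be made by the T cell itself.

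Library sizes behind the RPKM values, inferred from those values, lay between 17639131 and 19308699. They were 0.98 and 1.028 times the recovered read totals in WT at 37 and 39.5 °C. In the KO-labelled libraries they were 0.928 and 0.968 times those totals. All 10 T cell markers were measured in every library, with a summed level between 3130.0 and 3550.4 RPKM. The summed level of the 7 Th17 markers was 708 and 2124 RPKM in WT at 37 and 39.5 °C, against 267 and 420 RPKM in the KO-labelled pair. Of 8 B cell markers 2 matched a row, Cd79a and Ebf1, and their sum lay between 0.387 and 1.41 RPKM. Of 9 myeloid and dendritic markers 4 matched a row, with a sum between 0.338 and 1.63 RPKM; Cd14 and Itgax were at 0 in WT at 37 °C. The 3 matched CD8 and NK markers summed to between 4.17 and 5.69 RPKM. The 1 matched plasma cell marker, Sdc1, lay between 4.21 and 8.71 RPKM, and the 1 matched erythroid and platelet marker, Hba-a1, between 0.0638 and 0.401 RPKM.

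Promoter sequences were taken from RefSeq (build GRCm38.p6) for the 20 members with an entry. Tnfsf4, with the highest temperature ratio in WT among the described members (6.01), had no entry. Of the members with an entry 3 are shown, whose genes had the clearest differences by temperature among them. They are the ligand genes Tnfsf8 and Tnfsf11, high at 39.5 °C, and Tnfrsf8, the receptor of the Tnfsf8 product, low at 39.5 °C. Each run ends at the last base before an annotated GENCODE vM21 exon and is written 5′ to 3′ on the gene's strand, and capitals mark a match to the κB consensus bound by NF-κB.
Tnfsf8, chr4:63861348-63861534, minus strand: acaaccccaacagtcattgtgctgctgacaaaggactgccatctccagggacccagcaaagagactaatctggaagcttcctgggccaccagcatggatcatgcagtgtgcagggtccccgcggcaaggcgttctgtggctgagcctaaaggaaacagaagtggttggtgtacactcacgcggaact
Tnfsf11, chr14:78308044-78308293, minus strand: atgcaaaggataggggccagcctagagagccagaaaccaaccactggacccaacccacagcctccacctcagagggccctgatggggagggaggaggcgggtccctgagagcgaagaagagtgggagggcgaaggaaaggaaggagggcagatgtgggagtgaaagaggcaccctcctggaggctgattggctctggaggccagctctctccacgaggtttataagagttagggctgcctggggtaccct
Tnfrsf8, chr4:145315165-145315414, minus strand: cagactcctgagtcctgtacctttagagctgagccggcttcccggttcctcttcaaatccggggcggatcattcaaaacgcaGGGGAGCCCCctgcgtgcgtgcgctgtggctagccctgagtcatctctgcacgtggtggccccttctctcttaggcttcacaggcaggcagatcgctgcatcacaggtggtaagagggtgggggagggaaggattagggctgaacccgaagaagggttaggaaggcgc
In the 250 bases before each RefSeq start, both strands were searched for the κB consensus, for the SMAD element CAGACA and for the heat shock element, here the letters GAA, TTC and GAA with any 2 bases between neighbours. The κB consensus was found in 2 of the 24 windows of the 20 member genes, in Tnfrsf8 and Tnfrsf9, and in 3.9% of all 32851 windows of that length. In Tnfrsf9, which has 2 RefSeq starts, the matches GGGGATTTCC and GGGATTTCCC overlap each other from base -43 before the second start. CAGACA was found in 4 of the 24 windows, in Tnfrsf13c, Tnfrsf14, Tnfrsf18 and Tnfsf13b, and in 17.1% of all windows. The heat shock element was found in 0 of the 24 windows and in 0.470% of all windows. The matches in Tnfrsf9, Tnfrsf18 and Tnfsf13b lie past the start of an annotated GENCODE vM21 exon of the same gene. Those in Tnfrsf8, Tnfrsf14 and Tnfrsf13c lie before any such exon in their window. A match describes the letters in these windows and is not evidence that a factor binds there.

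By level, 1 receptor stood far above the others. Tnfrsf4, which encodes the costimulatory receptor OX40 (chr4:156013843-156016612), was at 623 RPKM in WT at 37 °C, 530.0 RPKM in WT at 39.5 °C, 699 RPKM in the KO-labelled library at 37 °C and 660.5 RPKM in the KO-labelled library at 39.5 °C. It made up 68.05%, 59.1%, 53.0% and 59.6% of the summed RPKM of all 25 members in the same order, and its rank among the 19555 rows lay between 104 and 118. Tnfrsf9, the gene of 4-1BB, came next among the members in every library, and Tnfrsf18, the gene of GITR, was next but for Tnfrsf13b in WT at 39.5 °C. Among ligands the order changed with temperature: at 37 °C in WT the 5 described ligands lay between 2.89 and 6.40 RPKM, while at 39.5 °C Tnfsf8, Tnfsf11 and Tnfsf4 stood at 28.4, 18.2 and 17.4 RPKM and the other two below 7. With 1 library per group there is no spread between samples to separate neighbours in these orders.

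**Figure D1:**
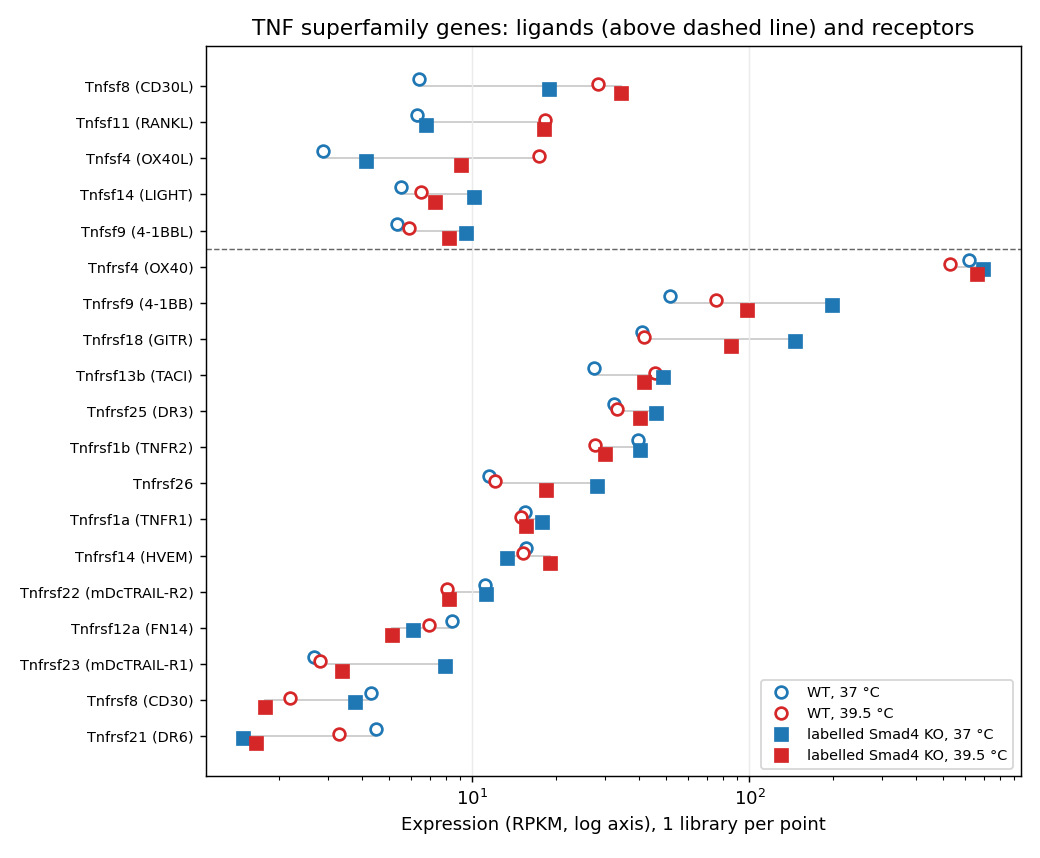
Expression of the 19 described members on a log axis of RPKM, 1 point per library, ligands above the dashed line and receptors below it, each sorted by mean; open circles are WT, filled squares KO-labelled libraries, blue 37 °C and red 39.5 °C, and grey lines span the 4 values. Tnfrsf4 lies between 530.0 and 699 RPKM, and for Tnfsf4, Tnfsf8 and Tnfsf11 both red points lie to the right of the blue point of the same genotype label.

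The first comparison was culture at 39.5 °C against 37 °C. In WT cells 3 of 19 members, all ligand genes, were at least 2-fold higher at 39.5 °C on the log2(RPKM + 1) scale, against 1.46% of the 13715 rows averaging 1 RPKM or more. None of the 19 was at least 2-fold lower, against 0.525% of rows. In the KO-labelled pair 1 member was at least 2-fold higher (0.751% of rows) and 2 were at least 2-fold lower (0.911% of rows). With scaling to total recovered reads both of these, Tnfrsf9 and Tnfrsf23, came just under 2-fold (log2 -0.95 and -0.97), and with upper quartile scaling Tnfrsf9 did (-0.99). Over the 5 ligands the median log2 ratio was 1.40 in WT and 0.83 in the KO-labelled pair, and over the 14 receptors it was -0.03 and -0.32, beside -0.02 and -0.01 over all rows. Each ratio compares 1 library with 1 other, without a replicate check, and the intervals given are exact 95% Clopper-Pearson intervals that cover counting error only. The summed Th17 markers were also higher at 39.5 °C under both labels. By temperature 6 of 7 had an unadjusted p under 0.05, beside 14.0% of rows, and 0 passed the adjusted threshold, in the limma fit given below. The part of these markers in the members' differences was not tested. In bulk RNA, fewer cells of a type and less RNA per cell cannot be told apart.

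Tnfsf4 encodes OX40L, the ligand of OX40 (chr1:161395409-161418410, plus strand). It was at 2.89 RPKM (97 reads) in WT at 37 °C and 17.4 RPKM (618 reads) in WT at 39.5 °C, and at 4.12 RPKM (134 reads) and 9.08 RPKM (308 reads) in the KO-labelled libraries at 37 and 39.5 °C. The WT library at 39.5 °C was the highest and both 39.5 °C libraries exceeded both 37 °C libraries. How many of all rows separate by temperature in this way was not counted. The ratio of 39.5 to 37 °C was 6.01 (4.85 to 7.52) in WT and 2.20 (1.79 to 2.72) in the KO-labelled pair.

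Tnfsf8 encodes CD30L, which engages CD30 (chr4:63831308-63861347, minus strand). Its levels were 6.40 and 28.4 RPKM for WT at 37 and 39.5 °C and 18.9 and 34.3 RPKM in the KO-labelled pair. The WT library at 37 °C was the low one. The temperature ratio was 4.43 (4.0 to 4.92) in WT and 1.81 (1.69 to 1.94) in the KO-labelled pair.

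Tnfsf11 encodes RANKL, the osteoclast-inducing ligand that Th17 cells are known to make (chr14:78277445-78308043, minus strand). It stood at 6.28 and 18.2 RPKM in WT and at 6.79 and 18.1 RPKM in the KO-labelled pair. The values at one temperature were close across genotype labels. The 37 and 39.5 °C values did not overlap, and the share of all rows without overlap was not counted. The temperature ratio was 2.90 (2.51 to 3.35) in WT and 2.67 (2.32 to 3.08) in the KO-labelled pair.

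The remaining ligand genes differed less by temperature. Tnfsf9, the gene of 4-1BBL, was at 5.36 and 5.89 RPKM for WT and 9.45 and 8.26 RPKM in the KO-labelled pair. Tnfsf14, the gene of LIGHT, which binds HVEM and the lymphotoxin-β receptor, was at 5.52 and 6.52 RPKM for WT and 10.1 and 7.33 RPKM in the KO-labelled pair. For Tnfsf9 both temperature intervals included 1. The Tnfsf14 ratio was 1.18 (0.970 to 1.44) in WT and 0.724 (0.612 to 0.856) in the KO-labelled pair.

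Among receptors, Tnfrsf8 was lower at 39.5 °C in both genotypes. It encodes CD30 (chr4:145267137-145315164, minus strand) and was at 4.28 RPKM (270 reads) and 2.20 RPKM (147 reads) in WT, then 3.75 RPKM (229 reads) and 1.79 RPKM (114 reads) in the KO-labelled pair. The ratio was 0.514 (0.417 to 0.630) in WT and 0.477 (0.378 to 0.600) in the KO-labelled pair, near 2-fold lower, although on the log2(RPKM + 1) scale it stays inside the 2-fold rule. Tnfrsf1b, which encodes TNFR2, the TRAF-binding TNF receptor of T cells, was at 39.5 and 27.6 RPKM for WT and 40.1 and 30.1 RPKM in the KO-labelled pair, ratios of 0.698 (0.659 to 0.740) and 0.750 (0.708 to 0.794). Tnfrsf22, a mouse decoy receptor for TRAIL, was at 11.1 and 8.09 RPKM, then 11.2 and 8.22 RPKM, ratios of 0.729 (0.657 to 0.808) and 0.733 (0.660 to 0.813). For these 3 receptors both libraries at 39.5 °C lay below both at 37 °C. The share of all rows that separate in this way was not counted, so the separation is only described.

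A second group of receptor genes was lower at 39.5 °C in the KO-labelled pair and not in WT. Tnfrsf9 was at 51.5 and 75.7 RPKM in WT, a ratio of 1.47 (1.40 to 1.55), and at 198 and 98.0 RPKM in the KO-labelled pair, a ratio of 0.495 (0.479 to 0.513). Tnfrsf18 was at 40.9 and 41.5 RPKM in WT, a ratio of 1.01 (0.935 to 1.10), and at 146 and 85.6 RPKM in the KO-labelled pair, a ratio of 0.584 (0.555 to 0.615). Tnfrsf26, a receptor gene with no known ligand, was at 11.5 and 12.0 RPKM for WT and 28.3 and 18.4 RPKM in the KO-labelled pair, with ratios of 1.05 (0.941 to 1.16) and 0.650 (0.601 to 0.702). In all of them the KO-labelled library at 37 °C was the highest. Tnfrsf23, the other TRAIL decoy gene, was at 2.69 and 2.82 RPKM for WT and 7.96 and 3.39 RPKM in the KO-labelled pair, with ratios of 1.05 (0.861 to 1.28) and 0.426 (0.365 to 0.495). Whether the temperature difference depends on genotype was not tested for any of these genes, since each group has 1 library.

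Tnfrsf13b, which encodes TACI, a receptor for BAFF and APRIL best known from B cells, was at 27.5 and 45.7 RPKM in WT and at 48.9 and 41.4 RPKM in the KO-labelled pair. The temperature ratio was 1.66 (1.56 to 1.78) in WT and 0.847 (0.799 to 0.898) in the KO-labelled pair. Of the 8 B cell markers only Ebf1 and Cd79a matched a row. Ebf1 was at 0.236 and 0.892 RPKM in WT and, in the KO-labelled pair, 0.535 and 0.930 RPKM. Its ratio was 3.77 (2.68 to 5.43) by temperature in WT, 1.74 (1.34 to 2.27) by temperature in the KO-labelled pair and 2.26 (1.55 to 3.34) by label at 37 °C. Cd79a lay between 0.151 and 0.485 RPKM, with every interval including 1. The part of these markers in the Tnfrsf13b differences was not tested. Tnfrsf14, the gene of HVEM, was at 15.6 and 15.2 RPKM for WT and 13.3 and 19.1 RPKM in the KO-labelled pair, with ratios of 0.976 (0.850 to 1.12) and 1.44 (1.25 to 1.65). Tnfrsf4 had ratios of 0.851 (0.832 to 0.871) and 0.944 (0.924 to 0.965). Tnfrsf1a, which encodes TNFR1, the death domain receptor of TNF, was at 15.4 and 15.0 RPKM in WT and, in the KO-labelled pair, 17.8 and 15.6 RPKM, with ratios of 0.975 (0.879 to 1.08) and 0.876 (0.792 to 0.968). Tnfrsf25, the gene of DR3, another death domain receptor, was at 32.4 and 33.4 RPKM in WT and, in the KO-labelled pair, 46.1 and 40.4 RPKM, with ratios of 1.03 (0.957 to 1.11) and 0.877 (0.821 to 0.938). The KO-labelled library at 37 °C was the highest for both. Tnfrsf21 had temperature ratios of 0.734 (0.615 to 0.874) in WT and 1.11 (0.835 to 1.48) in the KO-labelled pair. Tnfrsf12a, the gene of the TWEAK receptor FN14, had a temperature ratio of 0.829 (0.699 to 0.982) in WT and 0.838 (0.683 to 1.03) in the KO-labelled pair.

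**Figure D2:**
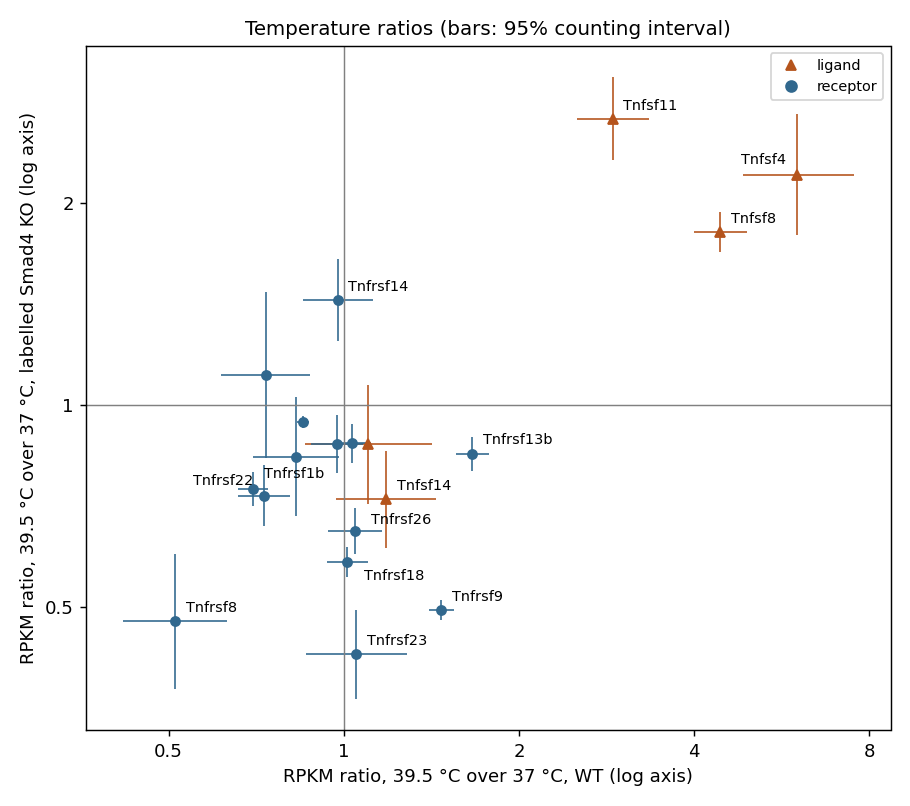
RPKM ratio of 39.5 to 37 °C in WT (horizontal, log axis) against the KO-labelled pair (vertical, log axis) for the 19 described members, triangles for ligands and circles for receptors, with bars for the 95% counting interval; lines mark a ratio of 1, and genes near 1 on both axes are unnamed. The pairs share no library, and Tnfsf4, Tnfsf8 and Tnfsf11 lie above 1 on both axes while Tnfrsf9 and Tnfrsf13b lie above 1 in WT and below 1 in the KO-labelled pair.

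Temperature differences shared by both genotype labels were tested with limma, in an additive fit of all 4 libraries. The interaction of genotype and temperature is the residual there, with 1 degree of freedom per gene, so a p-value does not measure the spread between animals or cultures. After Benjamini-Hochberg adjustment 0 of the 19 members passed, as did 0.0219% of rows. At an unadjusted p under 0.05 there were 6 members, Tnfsf4, Tnfsf8 and Tnfsf11 on the high side and Tnfrsf1b, Tnfrsf8 and Tnfrsf22 on the low side, which is 31.6% of the members against 14.0% of rows. Tnfsf11 had a log2 difference of 1.35 ± 0.12 (SE, adjusted p = 0.070), Tnfsf4 of 1.61 ± 0.30 (adjusted p = 0.135) and Tnfsf8 of 1.41 ± 0.28 (adjusted p = 0.140). Tnfrsf8 had -0.75 ± 0.14 (adjusted p = 0.131). With limma-voom on reads recovered from the RPKM values, 4 members passed, Tnfsf4, Tnfsf8, Tnfsf11 and Tnfrsf8, against 2.41% of rows.

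The next comparison was the Smad4 KO label against WT. At 37 °C 5 of 19 members were at least 2-fold higher in the KO-labelled library, Tnfsf8, Tnfrsf9, Tnfrsf18, Tnfrsf23 and Tnfrsf26, against 4.7% of rows. Tnfrsf21 alone was at least 2-fold lower, against 1.14% of rows. At 39.5 °C 1 member, Tnfrsf18, was at least 2-fold higher (2.3% of rows) and 0 were at least 2-fold lower (1.05% of rows). The median log2 ratio over the 19 members was 0.40 at 37 °C and 0.15 at 39.5 °C, beside -0.01 and 0.00 over all rows. The comparison at 37 °C shares its WT library with the WT temperature comparison and its KO-labelled library with the KO-labelled temperature comparison. The comparison at 39.5 °C shares its libraries with them likewise, so the ratios by label and by temperature are not independent. For Tnfrsf9, Tnfrsf18, Tnfrsf23 and Tnfrsf26 the KO-labelled library at 37 °C was the highest and enters both ratios.

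In the limma fit over both temperatures 2 members rose with the KO label (8.57% of rows rose) and 1 fell (4.7% of rows fell). The Th17 markers Il17a, Il17f, Rora, Ccr6 and Il1r1, 5 of 7, fell with the label in the same fit, and their part in the members' differences was not tested. The 3 calls make up 15.8% of the members, near the 13.3% called among all rows, and at an unadjusted p under 0.05 there were 10 of 19 members against 34.6% of rows. On simulated libraries the fit also called unchanged genes, at more than the nominal rate. With no filter on low values none of the 3 passed, nor did any other row, with adjusted p of 0.070 for Tnfrsf18, 0.095 for Tnfrsf26 and 0.085 for Tnfrsf21. Tnfrsf18 rose by a log2 difference of 1.42 ± 0.20 (SE, adjusted p = 0.019). The ratio of the KO-labelled library to WT was 3.58 (3.35 to 3.83) at 37 °C and 2.06 (1.92 to 2.21) at 39.5 °C. GITR, its product, is a costimulatory receptor abundant on regulatory T cells. Foxp3, the defining regulatory T cell gene, fell with the KO label in the same fit (log2 -1.81 ± 0.17, adjusted p = 0.012), at 7.80, 5.10, 1.98 and 0.477 RPKM. Of the 4 regulatory T cell markers in the fit, Foxp3 and Ikzf4 lay below 0 by label and Il2ra and Ctla4 above, and only Foxp3 passed. Ikzf2, at most 0.281 RPKM, had label ratios of 2.14 (1.09 to 4.38) at 37 °C and 1.97 (1.26 to 3.12) at 39.5 °C. The 5 regulatory T cell markers summed to 502, 490 and 641 RPKM in WT at 37 °C, WT at 39.5 °C and the KO-labelled library at 37 °C, and to 454 RPKM in the KO-labelled library at 39.5 °C, mostly from Il2ra and Ctla4, which activated T cells also express; their part in the Tnfrsf18 difference was not tested.

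Tnfrsf26 rose with the KO label by 0.90 ± 0.19 (adjusted p = 0.038), with ratios of 2.46 (2.24 to 2.69) at 37 °C and 1.53 (1.39 to 1.68) at 39.5 °C. Tnfrsf21, which encodes the death domain receptor DR6 (chr17:43016555-43089189, plus strand), fell by 0.92 on the log2 scale (SE 0.17, adjusted p = 0.029). It was at 4.50 RPKM (297 reads) and 3.30 RPKM (231 reads) in WT, and at 1.49 RPKM (95 reads) and 1.65 RPKM (110 reads) in the KO-labelled libraries. Both KO-labelled libraries lay below both WT libraries, with ratios of 0.330 (0.259 to 0.418) at 37 °C and 0.499 (0.394 to 0.629) at 39.5 °C. How many of all rows separate by label in this way was not counted.

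Tnfrsf9 showed the highest single ratio by genotype label among the described members, 3.84 (3.68 to 4.02) at 37 °C, and 1.29 (1.24 to 1.35) at 39.5 °C, and did not pass over both temperatures (log2 1.14 ± 0.35, adjusted p = 0.085). Tnfrsf23 had 2.96 (2.51 to 3.50) and 1.20 (0.995 to 1.45), with an adjusted p of 0.117. Tnfsf8 had 2.96 (2.65 to 3.30) and 1.21 (1.14 to 1.28), with an adjusted p of 0.097. For all 3 the difference by label was larger at 37 than at 39.5 °C in these libraries. Tnfsf9 had ratios of 1.76 (1.40 to 2.23) and 1.40 (1.12 to 1.76) and an adjusted p of 0.054, and Tnfsf14 of 1.83 (1.53 to 2.21) and 1.12 (0.938 to 1.35) with an adjusted p of 0.142. Tnfsf4 stood on opposite sides of 1, at 1.43 (1.09 to 1.87) at 37 °C and 0.523 (0.454 to 0.600) at 39.5 °C. For Tnfrsf4 the ratios were 1.12 (1.10 to 1.15) and 1.25 (1.22 to 1.27), with an adjusted p of 0.159. Tnfrsf25 had 1.42 (1.33 to 1.53) and 1.21 (1.13 to 1.30), with an adjusted p of 0.102.

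Tnfrsf12a lay below 1 at both temperatures, with ratios of 0.726 (0.605 to 0.869) and 0.734 (0.604 to 0.891) and an adjusted p of 0.091. Tnfrsf13b stood at 1.78 (1.67 to 1.90) and 0.906 (0.855 to 0.960), and Tnfrsf14 at 0.851 (0.734 to 0.985) and 1.25 (1.10 to 1.43), both again on opposite sides of 1. Tnfsf11 and Tnfrsf22 did not stand off 1 beyond counting error at either temperature, Tnfsf11 at 1.08 (0.908 to 1.29) and 0.997 (0.901 to 1.10) and Tnfrsf22 at 1.01 (0.917 to 1.11) and 1.02 (0.909 to 1.13). The genes of the receptors for TNF itself lay near 1, Tnfrsf1b at 1.01 (0.962 to 1.07) and 1.09 (1.03 to 1.16) and Tnfrsf1a at 1.15 (1.04 to 1.28) and 1.04 (0.935 to 1.15).

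**Figure D3:**
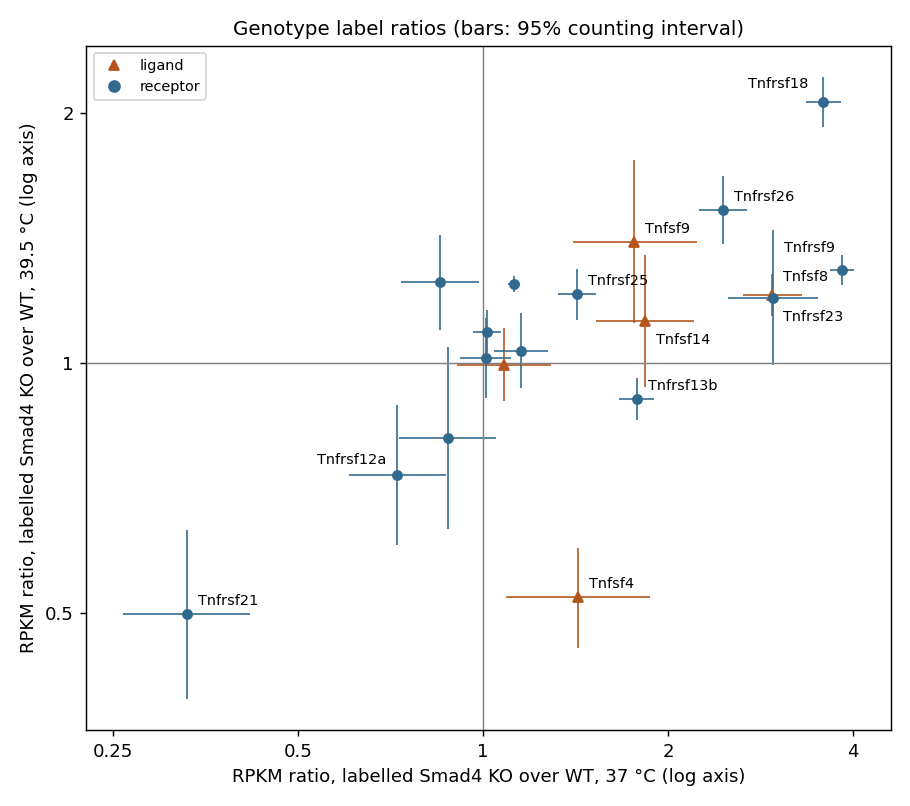
RPKM of the KO-labelled library over that of WT at 37 °C (horizontal, log axis) and at 39.5 °C (vertical, log axis) for the 19 described members, with 95% counting intervals as bars, triangles for ligands and circles for receptors; genes near 1 on both axes are unnamed. Tnfrsf18 lies highest on the vertical axis at 2.06, Tnfrsf21 lowest on both axes at 0.330 and 0.499, and Tnfrsf9 lies at 3.84 and 1.29.

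Read across all 4 libraries, 4 of 19 members had a temperature ratio at least 2-fold lower in the KO-labelled pair than in WT, against 1.55% of rows, and 0 had one at least 2-fold higher, against 0.671% of rows. They were Tnfrsf9 (log2 difference of the ratios -1.55), Tnfsf4 (-1.26), Tnfsf8 (-1.16) and Tnfrsf23 (-1.08). With 1 library per group these differences carry no test. They are built from the same 4 libraries as the ratios above, so they are not separate findings.

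Levels of ligand and receptor were set side by side for 4 couples. For OX40L and OX40, the RPKM of Tnfrsf4 was 215 times that of Tnfsf4 in WT at 37 °C and 30.5 times at 39.5 °C, and 170 and 72.7 times in the KO-labelled pair. For CD30L and CD30, the receptor level was 0.669 and 0.0775 of the ligand level in WT at 37 and 39.5 °C and 0.198 and 0.0522 in the KO-labelled pair. In this couple the ligand was higher and the receptor lower at 39.5 °C under both genotype labels. In the 4-1BBL and 4-1BB couple, Tnfsf9 and Tnfrsf9 lay on the same side of 1 in all 4 ratios, although both temperature intervals of Tnfsf9 included 1. The 4-1BB receptor stood at 9.61, 12.8, 20.9 and 11.9 times its ligand in WT at 37 °C, WT at 39.5 °C and the KO-labelled libraries at 37 and 39.5 °C. HVEM stood at 2.83, 2.34, 1.31 and 2.60 times LIGHT in the same order.

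**Figure D4:**
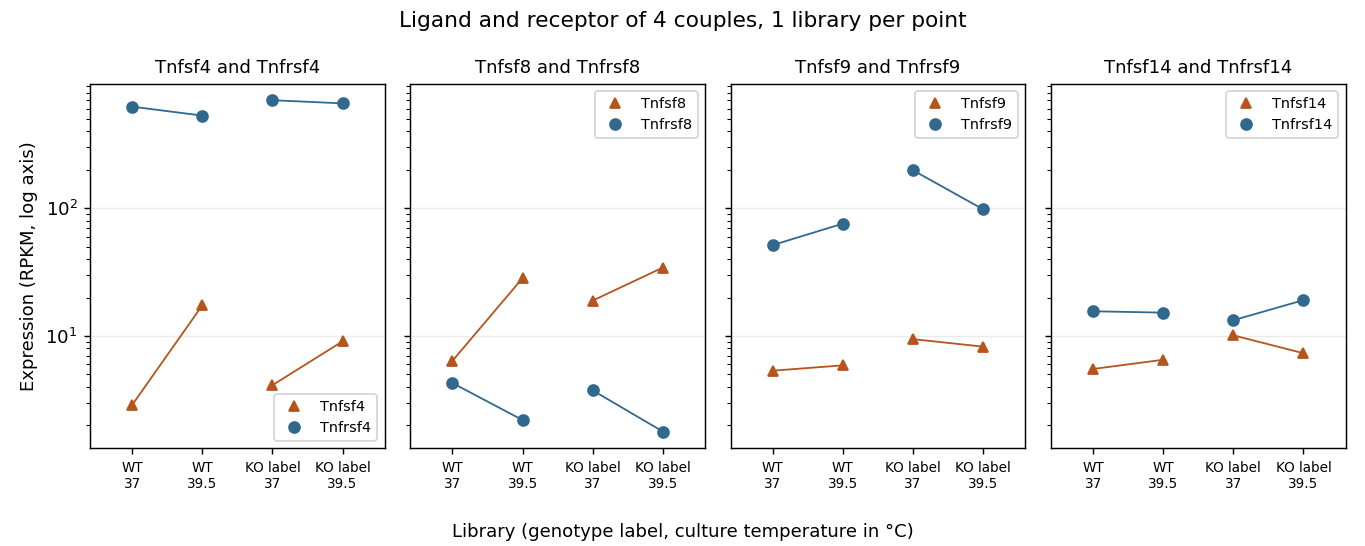
RPKM on a log axis for 4 ligand genes (triangles) and their receptor genes (circles) in the 4 libraries, with lines joining 37 to 39.5 °C within a genotype label. In the WT libraries at 37 and 39.5 °C, Tnfsf8 is at 6.40 and 28.4 RPKM while Tnfrsf8 is at 4.28 and 2.20 RPKM, and Tnfrsf4 is at 530.0 RPKM or more in every library.

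The 6 members below 1 RPKM complete the set. Tnfrsf11a, the gene of the RANKL receptor RANK, had 1, 8, 1 and 0 reads in WT at 37 °C, WT at 39.5 °C and the KO-labelled libraries at 37 and 39.5 °C. Tnfrsf11b, which encodes osteoprotegerin, the soluble decoy for RANKL, had 1, 1, 31 and 16 reads in that order. Its ratio by label was 32.0 (5.34 to 1305) at 37 °C and 16.8 (2.61 to 704) at 39.5 °C, at levels of at most 0.624 RPKM. Tnfsf10, the gene of TRAIL, reached 0.578 RPKM, Tnfrsf13c, the gene of the BAFF receptor, 0.278 RPKM, Tnfrsf19, the gene of the orphan receptor TROY, 0.0984 RPKM and Tnfsf13b, the gene of BAFF, 0.0633 RPKM. These genes were under the minimum mean of the fit and were not tested.

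Many members lie beside each other in the genome (GRCm38, GENCODE vM21). On chromosome 4, 7 member receptor genes lie within 10.8 Mb, between positions 145213463 and 156028895. Tnfrsf4 and Tnfrsf18 are 9.6 kb apart on the same strand, yet Tnfrsf18 rose with the KO label while Tnfrsf4 did not pass (log2 0.24 ± 0.10, adjusted p = 0.159). Whether the 2 genes differ from each other was not tested. Tnfrsf1b and Tnfrsf8, 20.3 kb apart, were both lower at 39.5 °C under both labels without passing. On chromosome 7, Tnfrsf26, Tnfrsf22 and Tnfrsf23 lie in a row with gaps of 6.1 and 16.1 kb. Tnfrsf26 rose with the KO label, whereas Tnfrsf22 had a log2 difference of 0.02 ± 0.12 (adjusted p = 0.940) and Tnfrsf23 one of 0.74 ± 0.27. Of the 50-base stretches of Tnfrsf23 transcripts, 18.0% also occur in Tnfrsf22 transcripts and 0 in those of Tnfrsf26. Some reads of Tnfrsf22 and Tnfrsf23 may therefore be uncertain by gene, and the share of such reads was not measured.

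Superfamily genes that carry other symbols were read beside the members. Of 15 such genes 13 matched a row and 7 had a mean of at least 1 RPKM. With the KO label 1 of the 7 rose and 0 fell, beside 8.57% and 4.7% of all rows, and Cd40lg, with a log2 difference of -0.65 ± 0.16 (adjusted p = 0.058), passed by label with limma-voom. By temperature 0 passed in limma, while 2, Cd40lg and Ltb, had an unadjusted p under 0.05, beside 14.0% of rows. The same 2 passed with limma-voom, beside 2.41% of rows. Ltb, which encodes lymphotoxin β, rose by a log2 difference of 1.61 ± 0.10 (adjusted p = 0.0062). It was at 210 and 133 RPKM for WT and 643 and 409 RPKM in the KO-labelled pair. Cd40lg, the gene of the CD40 ligand that helps B cells, was at 16.1 and 48.9 RPKM for WT and 12.1 and 25.6 RPKM in the KO-labelled pair, with temperature ratios of 3.03 (2.70 to 3.42) and 2.12 (1.83 to 2.46) and an adjusted p of 0.075. Lta, the gene of lymphotoxin α, was at 160 and 333 RPKM for WT and 387 and 287 RPKM in the KO-labelled pair. Fas, the gene of the death receptor Fas, was at 1.86 and 5.92 RPKM, then 3.24 and 3.53 RPKM. Tnf itself lay between 18.6 and 26.4 RPKM. In WT 3 of the 7 were at least 2-fold higher at 39.5 °C, Lta, Cd40lg and Fas, beside 1.46% of rows.

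All 35 genes of a list of signalling genes downstream of the receptors were measured. With the KO label 2 of the 35 rose and 2 fell, beside 8.57% and 4.7% of all rows. By temperature 0 passed in limma or limma-voom and 2 of the 35 had an unadjusted p under 0.05, Map3k7 and Nfkb2, beside 14.0% of rows. Tnfaip3, which encodes the NF-κB inhibitor A20, rose by 0.88 ± 0.14 (adjusted p = 0.021), at 3.59 and 3.87 RPKM for WT and 8.18 and 7.28 RPKM in the KO-labelled pair. Traf1, an adaptor gene of TRAF-binding receptors, rose by 0.69 ± 0.15 (adjusted p = 0.044). Rel, which encodes the NF-κB subunit c-Rel, and Map3k7, which encodes the kinase TAK1, fell by 0.69 and 0.62 on the log2 scale (adjusted p = 0.035 and 0.045). The median log2 ratio over the 35 genes was -0.05 by temperature in WT, -0.01 in the KO-labelled pair, -0.02 by label at 37 °C and 0.07 at 39.5 °C. None of the 35 was at least 2-fold different by temperature in either pair, beside 1.98% of rows in WT and 1.66% in the KO-labelled pair, and 1, Tnfaip3, was by label, at 37 °C.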

How the data were processed

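Total RNA from Trizol extraction went into NEXTflex libraries, per the labels' protocols. Per the submitters' processing notes, edgeR, featureCounts, Subread, Bowtie2 and Trim Galore 0.4.4 were used with mm10, in roles not stated. The sources used here do not give strandedness or annotation. Per library, the authors deposited 1 table of RPKM. From RPKM, exon length (GENCODE vM21) and library size, whole reads were recovered within 0.01 reads for 19554 of 19555 rows; 12053 of 13144 name-matched rows (91.7%) were whole at the annotated length, and other rows took their own length, so read totals (18581136 to 19027198) are approximate. Tests used log2(RPKM + 1) for rows averaging 1 RPKM or more, in limma 3.58.1 (R 4.3.3; genotype plus temperature, trend, adjusted p under 0.05). The fit was tested on simulated libraries with known fold changes by genotype and no interaction. There it recovered most changes but called more unchanged genes than that threshold allows. Its calls in the presence of an interaction were not tested. Nothing in the labels gives separate animals or cultures, and PCR copies were not marked by molecular identifiers, so intervals cover counting error only. Members and lists were chosen with earlier results of these data known. Members at least 2-fold different, called by limma or at 10 RPKM or more were given in full. One gene matching the pattern is not reported here.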

Additional observations from a re-analysis of the deposited data

Results flagged for a closer look

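For 2 members the temperature ratio went in opposite directions under the 2 genotype labels with both counting intervals away from 1. For Tnfrsf9 the log2 ratio of 39.5 to 37 °C was 0.55 in WT and -1.01 in the KO-labelled pair, a difference of -1.55. For Tnfrsf13b it was 0.71 and -0.23, a difference of -0.95. Each direction rests on 1 library per group, and the difference was not tested. The share of all rows that meet this rule was not counted, so the 2 members are only described.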

How the results depend on the processing

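The counts of members at least 2-fold different were 3 by temperature in WT, 3 by temperature in the KO-labelled pair, 6 by label at 37 °C, 1 by label at 39.5 °C and 4 for the difference of the temperature ratios. With a 1.5-fold rule they were 5, 8, 9, 3 and 8, beside 7.93%, 7.12%, 18.8%, 15.4% and 9.82% of rows. With a pseudocount of 0.1 the KO-labelled temperature count was 5. Scaled to total recovered reads, the count by label at 39.5 °C was 0, since Tnfrsf18 came under 2-fold. By temperature in the KO-labelled pair that scaling took Tnfrsf9 (log2 -0.95) and Tnfrsf23 (-0.97) under 2-fold, which left 0 members lower, and brought Tnfsf4 (1.02) over it, and upper quartile scaling took Tnfrsf9 (-0.99) under it.

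The 3 limma calls by label became 5 with a minimum mean of 5 RPKM, which leaves Tnfrsf21 untested, and 5 with limma-voom. The rows called became 24.9% and 21.0% in those settings, beside 13.3% in the main fit. With no filter on low values 0 members passed, as did 0 of all 19555 rows, and the cause was not tested. Tnfrsf18, Tnfrsf26 and Tnfrsf21 kept their calls under a pseudocount of 0.1, both other scalings, no trend and limma-voom. The 0 calls by temperature became 1 (Tnfsf11) with a pseudocount of 0.1 and with either scaling. Rows called were 0.219% with that pseudocount, 0.634% with upper quartile scaling and 0.0879% with scaling to total reads. With a minimum mean of 5 RPKM 3 members passed (3.24% of rows), and with limma-voom 4 did (2.41% of rows). Differences near 0 that changed sign were those by label in Tnfrsf22 with upper quartile scaling (-0.0006), and with scaling to total reads those by label in Tnfrsf1b (-0.0105), Tnfrsf14 (-0.0333), Tnfrsf22 (-0.0587) and Tnfsf11 (-0.029) and by temperature in Tnfsf9 (0.0277).

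No paired analysis was possible because each group has 1 library, so no replicate number can serve as a block. The additive fit itself compares temperature within genotype label and label within temperature. Leaving out a library leaves no residual degree of freedom, so it was not run. Depth limits the members with few reads, as the wide interval of Tnfrsf11b shows.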
